A study of Caenorhabditis elegans with 2 samples.

Results

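The genes described here are those of chromosome V of Caenorhabditis elegans that had at least 3 raw counts when both libraries of the study were added. They number 2087 of the 7850 chromosome V genes in the table, and of the 11683 genes on all chromosomes that reach 3 counts among 46739. At the edge of this rule, 173 chromosome V genes had exactly 3 counts and entered, while 352 had exactly 2 and did not. A further 4663 chromosome V genes had no count in either library.

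RNA was taken from dissected gonads of adult hermaphrodites, grown on solid medium, and sequenced as 1 library per strain. The first strain was wild type N2. The second was YBT7, which carries deg-1(huj32), linc-20(huj2) and hujCf1 and whose X chromosome is bisected, with no engineered change given for chromosome V. Genome sequencing in the study did list a homozygous indel on chromosome V, in swsn-1, for YBT7 and not for its parent. The source label of the YBT7 sample also holds the words wild type, so the strain was taken from its title and genotype. Since each strain is a single library, differences could not be checked against replicates and no p-value is given.

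Autosomes of this worm have a gene-rich centre, where conserved genes of growth and cell division are common, and arms that recombine more often and hold more repeats and more recently expanded gene families. Chromosome V is known for large families of chemoreceptors, nuclear hormone receptors, C-type lectins, F-box proteins and detoxifying enzymes. Many of these families act in sensory neurons, the gut or the epidermis, and not in the germ line that makes up most of a gonad. In what follows the left arm is every gene that starts within the first 6 Mb, the centre the genes from there to 16 Mb, and the right arm the rest, and the chromosome is also divided into 21 bins of 1 Mb numbered from the left end.

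The libraries held 2873065 counts for wild type and 4525439 for YBT7, and chromosome V took 12.9% and 12.8% of them. Counts were divided by size factors of 0.816 and 1.22, and a gene was called measured when the mean of its normalized counts was above 5. Pairs of counts are given throughout with wild type first. A gene was called higher or lower in YBT7 when its absolute log2 fold was above 5 divided by the square root of that mean, plus 1, which is the rule of the study. Folds are ratios of normalized counts, each followed in parentheses by its exact 95% interval, which covers counting error only. A gene with no count in 1 library is compared with a floor of 3 counts, and that value is not a lower limit. Calls used no floor, so every measured gene without a wild-type count was called higher by the rule itself. The swsn-1 gene, which encodes a subunit of a chromatin remodelling complex and lies in the right arm, had 326 and 424 counts, 0.867-fold (0.749 to 1.005), and was not called. The gonad label was checked on markers over all chromosomes. Over all 8618 measured genes, 9.55% were called higher and 1.25% lower. Germline markers were all detected (10 of 10) with none called, and their summed level was lower in YBT7 at a CPM ratio of 0.749, with a median log2 fold of -0.36 and 1 of 10 above 0. Oocyte markers were also all detected (8 of 8), at a CPM ratio of 0.895 and a median of -0.09. Intestine markers, a tissue outside the gonad, went from 840 to 10735 counts with 13 of 14 measured genes higher, and yolk genes from 2415 to 43404 with 6 of 6 higher. Body wall muscle markers (1391 and 8541 counts, 9 of 14 higher) and hypodermis markers (638 and 7504, 4 of 6) moved the same way, and sperm markers fell (246 and 52, 6 of 6 lower). Pharynx markers (171 and 262 counts) had none of 5 measured genes higher, at a CPM ratio of 0.973. Neuron markers (1134 and 1985, 2 of 8 higher) had a ratio of 1.11, with 9 of 10 detected and rgef-1 at 0 in both libraries. Most of these counts came from snb-1 (965 and 1596), and the median log2 fold of the 8 was 0.79. Somatic gonad markers (467 and 765, none called) had a ratio of 1.04, most of it from inx-8, with lag-2 of the distal tip cell at 0 in both. Their part in the results below was not tested, and in a bulk sample fewer cells of a type and less RNA per cell cannot be told apart.

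In wild type, the level on chromosome V was highest in the centre and lowest in the right arm. The centre held 72.0% of the chromosome's wild-type counts (exact binomial interval 71.9 to 72.2%) on 53.9% of its annotated genes. The left arm held 20.6% of the counts (20.5 to 20.8%), and the right arm 7.37% (7.28 to 7.45%). Per megabase this was 9316 CPM in the centre (counts scaled to a library total of 1000000), 4449 CPM in the left arm and 1936 CPM in the right arm. The median measured gene of the centre was also higher when scaled to the length of its exons. This median was 21.8 CPM per kilobase in wild type, against 7.53 in the left arm and 6.79 in the right arm. Genes were measured on the mean of both libraries. Those near 0 in wild type that entered through YBT7 can therefore lower the wild-type medians. In YBT7 the medians were 23.4 in the centre, 13.1 in the left arm and 10.2 in the right arm. Since the reads come mainly from transcript ends, values per kilobase understate long genes.

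Fewer of the genes in the arms were detected at all. Of the protein-coding genes, 47.2% in the centre had at least 1 wild-type count, 39.4% in the left arm and 35.4% in the right arm. Without the chemoreceptor genes, which are nearly all silent here, the values were 52.8%, 49.4% and 40.7%, so that the left arm came closer to the centre and the right arm did not. On chromosomes I to IV the share of coding genes detected in wild type was 66.0%, and 42.5% on chromosome V.

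A few abundant genes set the level of many bins. The most abundant gene of a bin held between 10.3% and 66.5% of that bin's wild-type counts. In the left arm the largest wild-type counts were those of the ribosomal protein genes rpl-11.1 (6051 counts) and rps-27 (5895), followed by T19H12.2 (5062), the H1 linker histone gene hil-4 (3664) and T22F3.3 (3640). In the centre they were cyn-7, which encodes a cyclophilin (11709), daf-21, the worm HSP90 (11416), rpl-38 (7873), eef-1G, a subunit of translation elongation factor (6859), and rpl-28 (6737). The 5 most abundant genes of the right arm were lower, from prmt-1, an arginine methyltransferase gene, with 3470 counts to gyg-2, a glycogenin gene, with 1179. None of these 15 genes was called, and their log2 folds ran from -0.33 for T22F3.3 to 0.36 for rps-27.

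**Figure D1:**
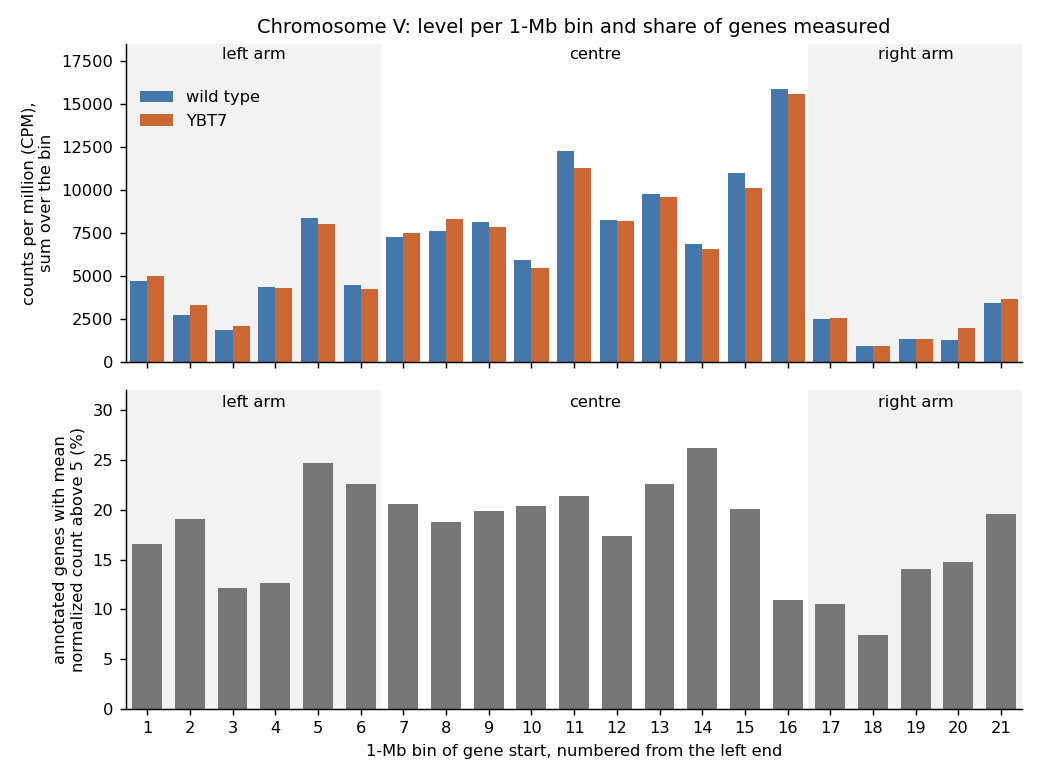
Summed CPM of each 1-Mb bin of chromosome V in wild type and YBT7 (upper panel) and the percent of annotated genes with a mean normalized count above 5 (lower panel), by bin from the left end. Bin 16 in the centre has the largest sum in wild type, 15895 CPM, and bin 18 in the right arm the smallest, 931.1 CPM.

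The distribution of counts along the chromosome was close between the strains, with a small shift towards the arms. In YBT7 the centre held 70.6% of chromosome V counts (70.5 to 70.7%), the left arm 21.1% (21 to 21.2%) and the right arm 8.30% (8.23 to 8.37%). The right arm went from 9530 to 10651 CPM, a ratio of 1.1, and the centre from 93165 to 90621 CPM, a ratio of 0.973. All 5 bins of the right arm had a ratio above 1, and bin 20 had the largest of the chromosome, 1.59. That bin holds asp-1, a gut aspartyl protease gene, and without asp-1 its ratio was 1.10. Without the gene of largest gain, the ratio was 0.8935 in bin 17, 0.896 in bin 18, 0.936 in bin 19 and 0.953 in bin 21. Over the whole chromosome 10 of 21 bins had a ratio above 1, but 3 of 21 did once the gene with the largest gain was left out of each bin. The genes called higher held 0.749% of the wild-type counts of chromosome V and 6.82% of its YBT7 counts. In the right arm they held 3.55% and 22.8%.

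Among the 1380 measured genes of chromosome V, 209 were called higher in YBT7 and 6 lower. That is 15.1% higher, beside 9.55% of the 8618 genes measured on all chromosomes, and 0.435% lower, beside 1.25%. The share higher was 6.70% over chromosomes I to IV (414 of 6175), ranging from 3.95% on chromosome I to 10.4% on chromosome IV, and 18.8% on the bisected X chromosome (197 of 1049). Chromosome V therefore had the largest share of the 5 autosomes, and 36 lower genes lay on chromosome IV against its 6. The median log2 fold of its measured genes was 0.07, beside -0.03 over all measured genes, and it was -0.003 when the libraries were scaled by total counts.

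Most of the 209 genes were near the floor in wild type. They comprised 45 genes with no wild-type count, 76 with 1 to 3 and 88 with more. The calls of the 45 were fixed once these genes were measured. Without genes that have a 0, 164 of 1335 measured genes were higher (12.3%). On all chromosomes 143 of the 823 higher genes had no wild-type count. Where a wild-type count existed, the fold ran from 2.36 to 102 with a median of 9.52. Counts in YBT7 reached at least 50 in 99 of the 209, at least 500 in 20 and at least 1000 in 9. All 209 higher and all 6 lower genes were protein coding in the annotation, as were 1331 of the 1380 measured genes. The 32 measured pseudogenes, 6 noncoding RNA genes and 5 lincRNA genes of chromosome V had no call.

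**Figure D2:**
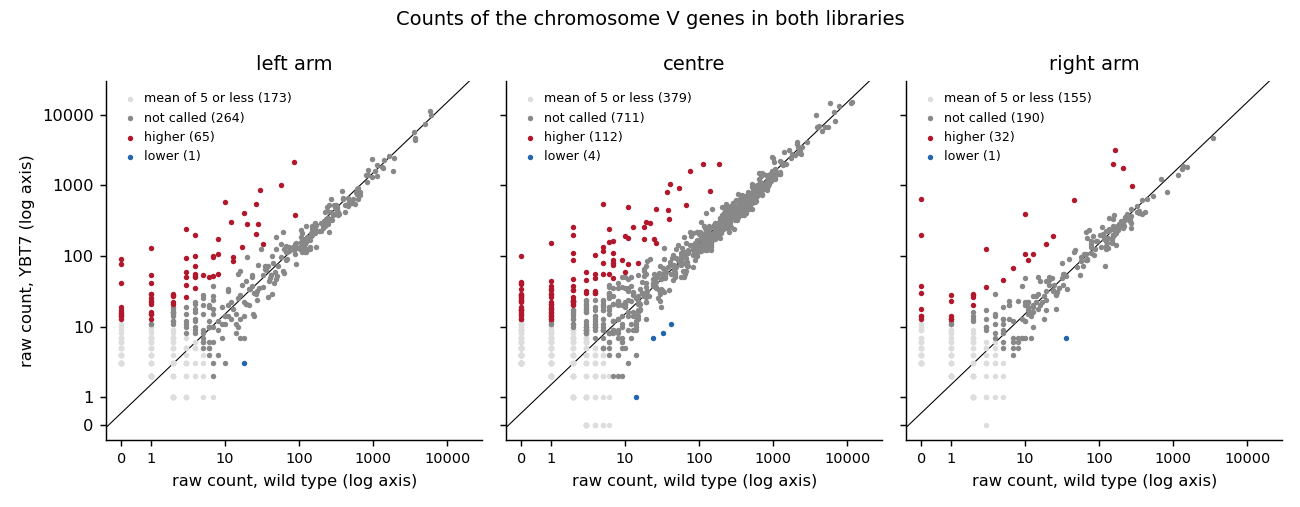
Raw count of each of the 2087 genes in wild type (horizontal, log axis) and in YBT7 (vertical, log axis), by region, with counts of 0 drawn at the edge and the line at equal normalized counts. Genes called higher lie mostly at low wild-type counts in all 3 regions, and genes with over 1000 counts in wild type lie along the line.

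Chromosome V genes had a larger share higher than those of chromosomes I to IV at every level of expression. Between a mean of 5 and 20 normalized counts it was 25.4% against 15%, and between 20 and 50 it was 24.4% against 13.6%. From 50 to 200 the values were 12% and 5.0%, and above 200 they were 4.94% and 1.78%. The difference between chromosome V and the other autosomes was thus present within each class of count. Above 200 the X chromosome stood apart from both, with 35.2%.

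The arms and the centre were then compared. In the left arm 65 of 330 measured genes were higher (19.7%), in the centre 112 of 827 (13.5%) and in the right arm 32 of 223 (14.3%). Genes are not independent replicates, and no test was run on these shares. The left arm exceeded the centre in 3 of the 4 classes of mean count. In the class from 20 to 50 it was 36.4% against 22.3%, whereas in the lowest class it was 25.5% against 27.7%. The right arm was below the centre in both lower classes (19.3% and 9.68%), nearly equal from 50 to 200 (11.3% against 11%), and above it over 200, where 6 of 47 genes were higher against 12 of 349. When the border of the centre was moved to 7 and 15 Mb, the order of centre and right arm turned (14.4% and 12.7%), while the left arm stayed above the centre in all borders and settings tried.

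**Figure D3:**
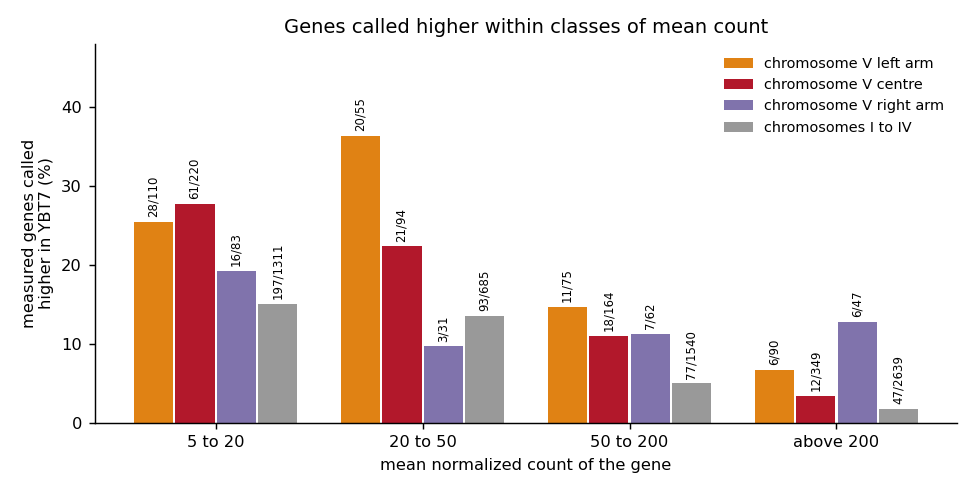
Percent of measured genes called higher in YBT7 within classes of mean normalized count, for the 3 regions of chromosome V and for chromosomes I to IV, with higher and measured genes printed over each bar. The left arm and the centre lie above chromosomes I to IV in all 4 classes, and the right arm in 3.

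By bin, the share higher was largest in bins 2 to 4 of the left arm. Bin 3 had the largest share of any bin, 12 of 41 (29.3%). Bin 1 had 19.15%, and bins 5 and 6 of the same arm had 8.57% and 15%. Bin 10 in the centre had 22.8%, bin 8 had 20%, and bin 18 in the right arm had 20.7%. Bins 1 to 4 together had 47 of 180 measured genes higher (26.1%), a group not set in advance. Bins 15 to 17, around the border of the centre and the right arm, had 12 of 176 (6.82%), and bin 16 had the smallest share, 3 of 52 (5.77%). Bin 16 was also the bin with the largest level in wild type. In all, 17 of 21 bins were above the 9.55% of all chromosomes.

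**Figure D4:**
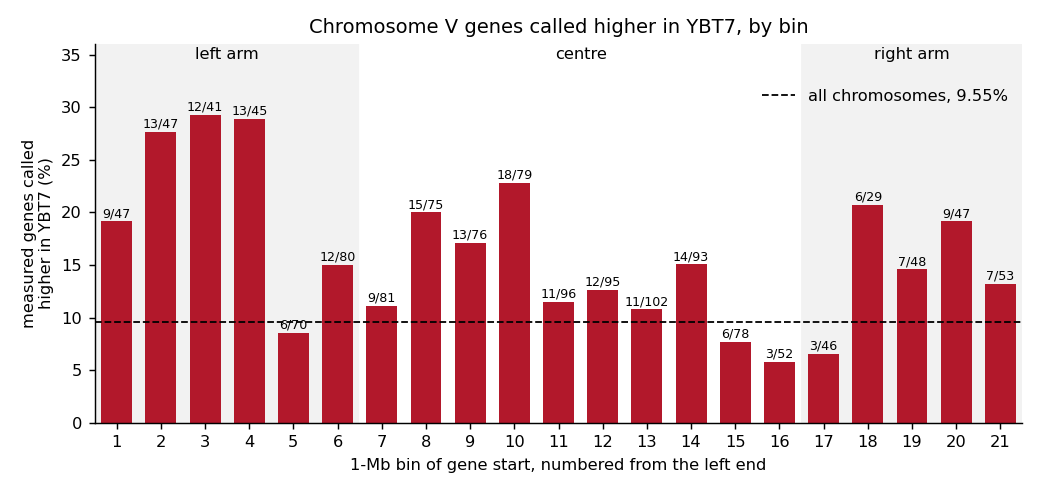
Percent of measured genes called higher in YBT7 in each 1-Mb bin of chromosome V, with higher and measured genes printed over each bar and the value of all chromosomes as a dashed line. Bins 2 to 4 in the left arm reach 27.7 to 29.3%, and bins 5, 15, 16 and 17 lie below the line.

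The genes of bin 3, the bin with the largest share, are given first. The pud genes encode small proteins known for rising when insulin signalling falls, and pud-3 (WBGene00017501, V from 2324510 to 2326847) went from 10 to 579 counts, 38.6-fold (20.8 to 80.9). Its neighbour pud-4 on the other strand had 3 and 241 counts, 53.6-fold (18.1 to 261.5). These 2 genes overlap, so reads from 1 may count for the other. The same bin holds folt-2, a folate transporter gene, with 4 and 73 counts, 12.2-fold (4.55 to 45.8), and gst-10, which encodes a glutathione S-transferase, with 8 and 56, 4.67-fold (2.21 to 11.3). Both libraries were far apart for each of these genes, and none of them came near the level of a housekeeping gene in wild type. In bin 16 the 3 genes that rose were T26H5.9 (0 and 27 counts), C29F3.7 (0 and 24) and T06E6.10 (1 and 16), all of low count.

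The largest rises on chromosome V, ranked by the lower limit of the fold, were in genes that wild-type gonads lacked almost entirely. C38D9.2 (WBGene00008010, V from 17567513 to 17571603, right arm) had 648 counts in YBT7 and none in wild type. That is 144-fold over the floor, with a lower counting limit of 116.8. Y39B6A.1, also in the right arm, had 0 and 195 counts, 43.3-fold over the floor (limit 34.9). ZK105.1 in the centre had 0 and 99 counts, 22-fold over the floor (limit 17.6). Among those with a known product, cpr-1, a cathepsin B-like cysteine protease gene of the gut, had 5 and 537 counts, 71.6-fold (30.5 to 221.4). F45D3.4 had 2 and 254 counts, 84.7-fold (23.2 to 702.9), D1086.10 had 2 and 198, 66.0-fold (18 to 548.8), and F57F5.1 had 11 and 494, 29.9-fold (16.6 to 60.4). The remaining members of this group are named with their families below.

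Aspartyl proteases, which digest protein in the gut lumen and in lysosomes, were all higher where they could be measured. Of the 15 aspartyl protease genes on the chromosome, 9 had at least 3 counts, all 9 were measured and all 9 rose, 6 of them in the centre. The call of 1 of the 9, which had no wild-type count, was fixed by the rule. Together the asp genes of chromosome V went from 324 to 6188 counts. The most abundant was asp-1 (WBGene00000214, V from 19049123 to 19050825, right arm), at 166 and 3139 counts, 12.6-fold (10.8 to 14.8). In the centre asp-5 had 41 and 1042 counts, 16.9-fold (12.4 to 23.8), asp-6 had 53 and 918, 11.6-fold (8.75 to 15.5), and asp-12, between these genes, had 1 and 153, 102-fold (18 to 4055). The asp-2 gene had 26 and 463 counts, 11.9-fold (8.0 to 18.4). Folds of the abundant members were alike within their intervals, and the very wide interval of asp-12 comes from its single wild-type count. Elsewhere in the genome 3 of 3 measured asp genes were higher as well.

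The cathepsin B-like family had 5 measured members, of which 3 rose. Beside cpr-1 these were cpr-5 in the left arm, with 20 and 283 counts, 9.43-fold (5.99 to 15.7), and cpr-4 in the centre, with 7 and 163, 15.5-fold (7.37 to 39.2). The cpr-3 gene had 4 and 10 counts, 1.67-fold (0.481 to 7.28), an interval that holds no change. The only measured cathepsin B-like gene elsewhere was also higher.

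Antibacterial genes of the gut were also higher. Lysozymes cleave the bacterial cell wall, and the 3 measured lys genes all rose. They were lys-1 with 37 and 813 counts, 14.7-fold (10.5 to 21), its neighbour lys-2 with 6 and 241, 26.8-fold (12.1 to 73.7), and lys-7 in the left arm with 18 and 411, 15.2-fold (9.51 to 25.9). The only measured saposin-like gene of the chromosome, spp-16, had 1 and 29 counts, 19.3-fold (3.21 to 789.6). Outside chromosome V 3 of 3 measured lys genes and 10 of 12 measured saposin-like genes were higher. C-type lectins bind sugars and many are induced by pathogens, and most of the 96 on chromosome V were silent in both libraries. Of the 8 measured, 5 rose, with clec-50 at 10 and 391 counts, 26.1-fold (14 to 54.8), and clec-1 at 28 and 288, 6.86-fold (4.64 to 10.5). Calls of 2 of these 5, which had no wild-type count, were fixed by the rule. On the other chromosomes 17 of 27 measured clec genes were higher, close to the share on V.

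The markers of intestine that lie on chromosome V moved with these families. Besides asp-1, cpr-1 and lys-1, which are on that list, mtl-2, a metallothionein gene, had 75 and 1618 counts, 14.4-fold (11.4 to 18.4). The 5 measured intestine markers of chromosome V all rose, from 284 to 6139 counts over its 7 listed genes. Of these 5, ges-1 had 0 and 15 counts, so its call was fixed by the rule. The listed genes elt-7 (1 and 5 counts) and mtl-1 (0 and 12) were not measured. The list and the protease families thus share members and are not separate evidence.

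Many genes of small secreted peptides rose as well. The nlp, flp and cnc genes encode neuropeptides of neurons and antimicrobial peptides of the epidermis, which were counted together, and of 17 measured on chromosome V 13 rose, 8 of them in the left arm. Calls of 3 of the 13, which had no wild-type count, were fixed by the rule. The summed counts of the family went from 65 to 1215. The cnc-2 gene, which encodes a caenacin, had no wild-type count and 91 in YBT7, 20.2-fold over the floor (limit 16.1). Next to each other in the left arm, nlp-27 had 4 and 196 counts, 32.7-fold (12.6 to 121.1), nlp-28 had 1 and 130, 86.7-fold (15.3 to 3449), and nlp-29, an epidermal antimicrobial peptide gene induced by fungal infection, had 3 and 50, 11.1-fold (3.59 to 55.7). In the centre nlp-33 had 6 and 157 counts, 17.4-fold (7.84 to 48.3), and nlp-24 had 25 and 175, 4.67-fold (3.06 to 7.41). Outside chromosome V 18 of 40 measured genes of this family were higher. Several nlp genes are near copies of each other and can share reads, so single values are uncertain.

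Cuticle collagens are made by the epidermis. On chromosome V 5 of 11 measured collagen genes rose, among them col-143 with 112 and 2019 counts, 12-fold (9.93 to 14.7), col-160 with 188 and 2005, 7.11-fold (6.12 to 8.30), col-140 with 57 and 1001, 11.7-fold (8.96 to 15.6), and col-42 in the right arm with 46 and 611, 8.86-fold (6.56 to 12.2). The 6 that were not called ranged from 0.148 to 8.0 in fold. On the other chromosomes 17 of 34 measured collagen genes were higher and 4 lower. Both hypodermis markers on the chromosome, col-140 and nlp-29, belong to these families. Collagen genes are alike in sequence, and default counting leaves out reads that fit several of them.

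Transthyretin-like proteins are secreted proteins of many tissues, and 6 of 7 measured ttr genes rose, beside 19 of 29 on the other chromosomes. The call of 1 of the 6, which had no wild-type count, was fixed by the rule. The most abundant were ttr-44 with 5 and 132 counts, 17.6-fold (7.35 to 55.1), and ttr-46, 17.3-fold (6.57 to 64.8) on 4 wild-type counts. In the right arm ttr-24 and ttr-26, with ttr-25 between them, had 3 and 36 counts, 8.0-fold (2.53 to 40.6), and 2 and 26 counts, 8.67-fold (2.17 to 75.4).

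**Figure D5:**
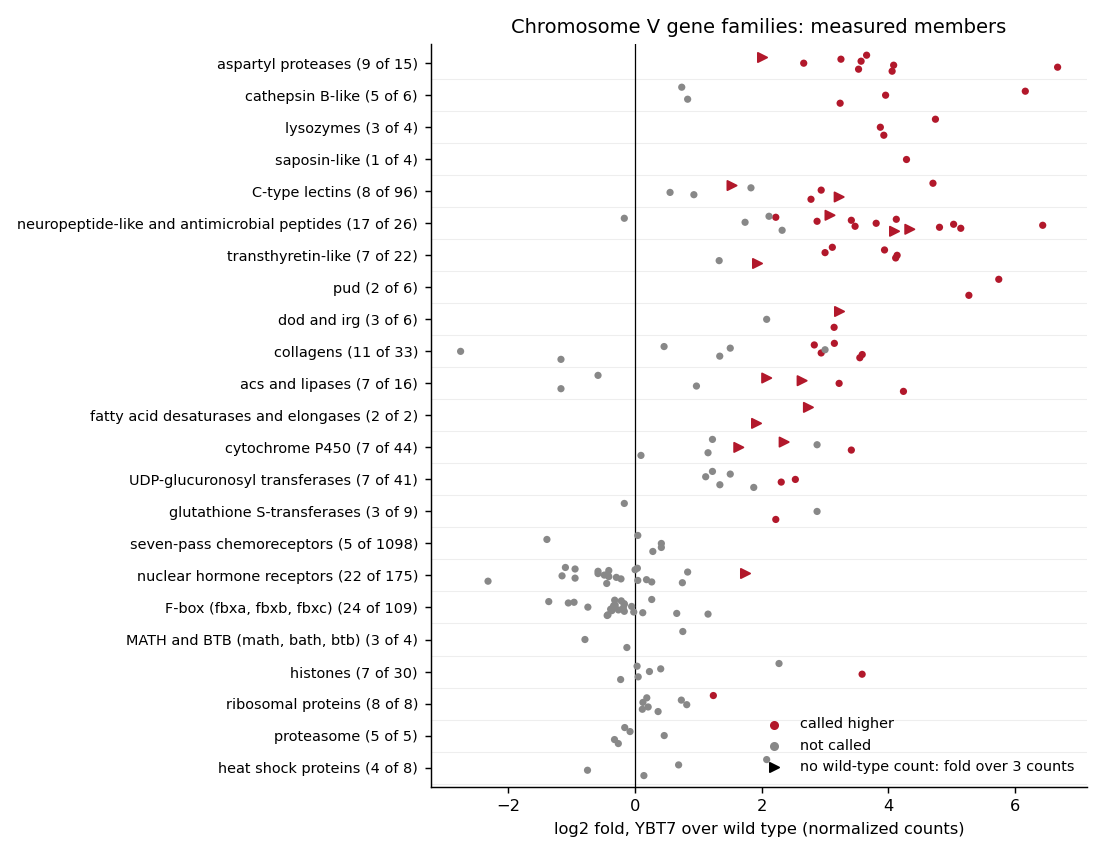
Log2 fold of every measured member of the chromosome V gene families named on the axis, 1 point per gene, with measured and annotated numbers beside each name, and triangles for genes with no wild-type count, drawn at their fold over 3 counts. Ion channels, sperm families and nematode specific peptides are not drawn. Each of these had 1 measured gene, below 0, and that of the last, nspa-5, was called lower. All 9 aspartyl protease genes lie to the right of 0, while most of the 24 F-box genes lie to its left and none is called.

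Enzymes of lipid and foreign compounds had fewer calls. Both fatty acid desaturase genes of the chromosome had no wild-type count, so their calls were fixed by the rule. In YBT7 fat-5 had 30 counts (6.67-fold over the floor, limit 5.10) and fat-7 had 17 (3.78-fold, limit 2.75). Of the 7 measured acyl-CoA synthetase and lipase genes 4 rose, led by lipl-5, which encodes a lysosomal acid lipase, with 30 and 849 counts, 18.9-fold (13.1 to 28.1). Calls of 2 of these 4, which had no wild-type count, were fixed by the rule. Cytochrome P450 genes oxidize lipids and toxins, and 3 of 7 measured rose, all with at most 23 counts in YBT7. Calls of 2 of these 3, which had no wild-type count, were also fixed by the rule. Of the UDP-glucuronosyl transferases, which conjugate toxins, 2 of 7 measured rose, ugt-12 with 7 and 52 counts, 4.95-fold (2.24 to 12.9), and ugt-63 with 3 and 26, 5.78-fold (1.77 to 29.8), a call that ended with a pseudocount of 1 and at equal depth. All 14 measured genes of these last families had a log2 fold above 0. On the other chromosomes 5 of 10 measured desaturase and elongase genes were higher, and 2 of 9 synthetase and lipase genes. There the shares were 4 of 9 for cytochrome P450 and 5 of 11 for UDP-glucuronosyl transferases.

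The largest named family of chromosome V gave almost no signal in either strain. Of 1098 seven-pass chemoreceptor genes, which encode candidate odorant receptors of sensory neurons, 29 had at least 3 counts and 5 were measured, with none called. Their summed counts were 237 in wild type and 401 in YBT7, a CPM ratio of 1.07. The most abundant of them, srsx-10, had 73 and 133 counts, 1.22-fold (0.906 to 1.64). For most of the rest no level could be detected at this depth, at which 3 counts equal 1.04 CPM for wild type and 0.663 CPM for YBT7.

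Nuclear hormone receptors are ligand-regulated transcription factors, and 59 of 175 had at least 3 counts. Of 22 measured, nhr-68 was higher, with 0 and 15 counts (3.33-fold over the floor, limit 2.39), a call that ended at equal depth. The median log2 fold of the 22 was -0.42. The others ranged from 0.200 to 1.78 in fold, none of them called. F-box proteins of the fbxa, fbxb and fbxc families choose substrates for ubiquitin ligases, and 24 of 109 were measured, 17 of them in the right arm. None was called, their median log2 fold was -0.29, and 4 of 24 were above 0. The most abundant was fbxa-210 in the right arm, with 133 and 177 counts, 0.887-fold (0.705 to 1.1). Among the measured genes of the right arm that belong to a family, 11 of 39 were higher, against 23 of 58 in the left arm and 30 of 76 in the centre.

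Families of growth and genes of the germ line are given beside the 9.55% of all measured genes called higher. Higher were 12.5% of ribosomal protein genes, 14.3% of measured histone genes and no proteasome gene. On so few genes these shares are not set apart from that of all genes. The 5 proteasome genes ranged from 0.798 to 1.38 in fold, with pas-6 at 1934 and 2415 counts. Of the 8 ribosomal protein genes 7 were not called, at 1.08 to 1.76-fold. The exception, rpl-2 (WBGene00004413, 279 and 986 counts, 2.36-fold, 2.06 to 2.70), overlaps other genes on both strands, lies just past the limit, and lost its call with total counts. Among 7 measured histone genes only his-41 was called, with 1 and 18 counts, and it overlaps another gene on its strand. The oocyte markers oma-2, pos-1 and spn-4, RNA-binding proteins loaded into the egg, were at 0.823, 1.09 and 0.954-fold, with 2879 to 5486 wild-type counts. The P granule gene pgl-3 had 416 and 421 counts, 0.675-fold (0.588 to 0.774), an interval below 1, and was not called.

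Neuronal and muscle genes of chromosome V were mixed. The secretory chaperone gene sbt-1 rose, with 13 and 108 counts, 5.54-fold (3.11 to 10.7). Synaptobrevin, snb-1, had 965 and 1596 counts, 1.10-fold (1.02 to 1.20), and the proprotein convertase gene egl-3 had 18 and 62, 2.30-fold (1.34 to 4.12), neither of them called. The SNAP-25 gene ric-4 had 14 counts in each library, 0.667-fold (0.295 to 1.51), and was not called. The myosin heavy chain gene myo-3 of body wall muscle had 18 and 65 counts, 2.41-fold (1.41 to 4.31), not called, and it overlaps genes on both strands.

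Only 6 genes of chromosome V were called lower, 4 of them in the centre and 1 in each arm. By the upper limit of the fold, F21H7.5 in the right arm came first, at 36 and 7 counts, 0.130-fold (0.0487 to 0.295). It was followed by C14C10.1 (14 and 1 counts, 0.0476-fold, 0.00113 to 0.313), cut-2, which encodes a cuticlin (42 and 11, 0.175-fold, 0.0811 to 0.345), and nspa-5, of a nematode specific peptide family (33 and 8, 0.162-fold, 0.0645 to 0.357). C02E7.7 had 18 and 3 counts, 0.111-fold (0.0210 to 0.381), and cyc-2.2, a cytochrome c gene, had 24 and 7, 0.194-fold (0.0707 to 0.465), a call that ended with a pseudocount of 1. All had at most 42 wild-type counts. The sperm list, which fell over the whole genome, has no member on this chromosome, and the only measured gene of the sperm families here, ssp-35, had 14 and 9 counts and was not called.

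Genes called higher often stood side by side. In order of start among measured genes, 35 runs of at least 2 neighbours held 91 of the 209 higher genes (43.5%), and 24.0% of the other measured genes had a higher neighbour. On chromosome I, with the lowest share of higher genes, these values were 3.08% and 7.98%. Chromosome II had 24.55% and 12.95%, and chromosome III 24.1% and 9.74%. Chromosome IV had 46.1% and 15.8%, and X had 38.1% and 32.7%.

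The longest run, of 7 genes, spans 25 kb in the left arm (V from 3964779 to 3989770). It holds the cytochrome P450 genes cyp-34A8 (1 and 16 counts) and cyp-34A9 (0 and 14), then nlp-34 (1 and 53), nlp-31 (1 and 42), nlp-29, nlp-28 and nlp-27. Every gene in it had at most 4 counts in wild type. A run of 5 in bin 3 joined C24B9.3 (13 and 98 counts), dod-3 (0 and 42), the dehydrogenase gene dhs-14 (0 and 17), the kettin gene ketn-1 of muscle (2 and 27) and F54E2.1 (5 and 53). Another of 5 lies in the centre over 194.1 kb, with C05C8.7 (1 and 29), F10G2.1 (4 and 30), cyp-35A2 (0 and 23), the serpin gene srp-6 (2 and 21) and F25E5.8 (0 and 13). These products do not belong to 1 family.

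Runs of 4 were found at the left end, with lipl-5, dod-19 (8 and 106 counts), ZK6.11 (26 and 203) and M02H5.8 (4 and 100), and in the centre, with C25E10.8 (1 and 19), the protease inhibitor gene swm-1 (2 and 22), C25E10.12 (1 and 33) and fip-2 (10 and 59). Within these runs cyp-34A8, F10G2.1, srp-6, swm-1 and fip-2 lost their calls with a pseudocount of 1. Several shorter runs were family members next to each other, such as asp-6, asp-12 and asp-5 within 6.5 kb, ttr-24, ttr-25 and ttr-26 within 4.92 kb, and lys-1 with lys-2.

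The named families did not hold the whole of the difference from the other autosomes. Of the 173 measured chromosome V genes in a family 64 were higher (37.0%), and of the 1207 in none 145 were (12%). Among these higher genes, 15 and 30 had no wild-type count. On chromosomes I to IV the same shares were 19.3% of 415 and 5.80% of 5760. Outside the families the left arm had 15.4% higher, the centre 10.9% and the right arm 11.4%.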

How the data were processed

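The authors made cDNA from gonad RNA with a poly(T) primer that holds an identifier of the molecule and amplified it through in vitro transcription. Reads were trimmed (cutadapt 1.12), mapped to WBcel235 (TopHat2 2.1.1) and assigned to genes (HTSeq 0.6.0, default settings). The deposited values are raw counts, 1 column per library, whose totals were 2873065 and 4525439. Whether identifiers were collapsed is not given in the sources used here, so intervals may be too narrow. The table also holds normalized values, fold changes and decisions made by the authors with DESeq2 1.12.4, which were not used.

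Size factors were medians of ratios over 10603 genes with a count in both libraries and at least 3 in all. The calling rule of the study was applied to all chromosomes. Fold intervals are exact conditional ones and shares of counts have exact binomial (Clopper-Pearson) ones, at 95%. Coordinates are those of the table. Biotypes and exon lengths came from Ensembl release 115, which places 185 of the 2087 genes at exactly the same start and end and lacks 6. Of the 2087 genes, 685 overlap another gene, 183 of them on the same strand. Families were taken by symbol.

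Named genes are the 12 higher genes that rank first by the lower limit of their fold, the lower genes (up to 8), the 5 with the most wild-type counts in each region, up to 4 of each family and marker list by mean, called ones first, the 5 longest runs, and up to 6 called genes of the bins with the largest and smallest shares. The members, lists and rule were chosen with earlier results of these data known. The family pattern for ion channels was corrected, and 1 family renamed, after the table was opened. Calls and intervals were tested on simulated data. Promoter motifs were not analysed here. Alternatives were other scalings (edgeR version 4.0.16 in R 4.3.3), minimum means, fold limits, treatments of zeros, thinning, region borders and sets of genes. Computations used Python 3.11.15, scipy 1.17.1, pandas 2.3.3, numpy 2.4.6 and, for plots, matplotlib 3.10.9.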

Additional observations from a re-analysis of the deposited data

How the results depend on the processing

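The 209 higher and 6 lower genes rest on the minimum mean and the fold limit more than on the scaling. With TMM, upper quartile or 2 other sets of size factors all 209 stayed among 211 or 212 called, and with total counts 198 stayed. Of 83 named genes with a call none turned its direction, while nhr-13, his-35 and str-89, which had no call, did so under total counts or thinning. The printed value of irg-2 (0 and 3 counts) changed sign with a pseudocount only because the floor of 3 counts was then not used. Total counts ended 3 named calls (F10G2.1, fip-2 and rpl-2). A pseudocount of 1 left 180 higher and ended 10 named calls (cyp-34A8, ugt-63, F10G2.1, srp-6, swm-1, fip-2, acs-14, cyc-2.2, clec-41 and T06E6.10). Thinning YBT7 to the wild-type depth left 182 of the 209 and ended 8 (cyp-34A8, cyp-34A9, ugt-63, srp-6, swm-1, fip-2, nhr-68 and rpl-2). A minimum mean of 10 left 156 and ended 15 named calls, and a mean of 20 ended 33. As percent of measured genes, 10.8% were higher and 0.310% lower with a minimum mean of 20, 20.4% and 1.20% with none (425 and 25 genes), 24.7% and 3.26% with a fixed 2-fold limit (341 and 45), and 0.942% lower with a 4-fold limit (13). The median log2 fold was -0.0034 with total counts, -0.0039 with a mean above 10, -0.051 above 20 and 0.25 with no minimum.

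The share higher moved to 8.40% in the centre with a mean above 20, to 19.6% in the centre and 21.2% in the right arm with no minimum, to 30.9%, 22.3% and 24.7% in left arm, centre and right arm with the 2-fold limit, to 10.7% in the centre without genes that have a 0, and to 15.1% in the left arm and 10.9% in the centre without list and family members. The left arm stayed above the centre in each. Leaving out overlapping genes or restricting to protein-coding genes moved no share beyond its interval.

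Shares of chromosome V counts depend on the borders, with values for wild type and then YBT7. With the centre from 5 to 17 Mb they were 17.1% and 17.8% (left arm), 77.4% and 75.9% (centre), 5.41% and 6.29% (right arm). From 6 to 17 Mb the centre had 74.0% and 72.6%, and the right arm 5.41% and 6.29%. From 7 to 15 Mb they were 26.3% and 26.9%, 54.1% and 52.6%, 19.6% and 20.4%. With the centre as the middle of the span they were 17.5% and 18.2%, 74.9% and 73.4%, 7.54% and 8.44%. Without the 11 most abundant genes they were 20.2% and 20.5%, 70.5% and 69.0%, 9.28% and 10.5%. In all of these the arms held more in YBT7. No paired analysis was possible because there is 1 library per strain, and for the same reason no replicate could be left out. The smallest YBT7 count called with none in wild type was 13.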
